A study of Mus musculus with 15 samples.

Results

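Transcripts of 9 genes for lipid-sensing nuclear receptors and a coactivator were read in mouse thalamus: the fatty acid receptors Ppara, Ppard and Pparg, their shared partners Rxra, Rxrb and Rxrg, the oxysterol receptors Nr1h2 (LXR-beta) and Nr1h3 (LXR-alpha), and the coactivator Ppargc1a. The genes were taken by name from the 29659 measured in every library, and all 9 were found. The data were 15 bulk RNA-seq libraries of polyA RNA from the thalamus of mice aged 4.5 months. By their labels all mice carried human APOE4 as a knock-in, with no group of another APOE allele, so that what APOE4 itself does could not be read. The 5EL libraries (n = 5) came from mice that also carried the 5xFAD transgenes, which are expressed in neurons and give early amyloid plaques, and kept Lilrb4a. The 5ELKO libraries (n = 4) had 5xFAD and a homozygous Lilrb4a deletion, present in the whole body rather than in microglia alone. The EL (n = 3) and ELKO (n = 3) libraries were the counterparts without 5xFAD, with Lilrb4a intact and deleted. Nothing in the labels says that each library was a separate mouse, so the p-values measure the spread between these libraries.

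PPAR and LXR proteins are transcription factors that are switched on by lipids, fatty acids and their products for PPARs and oxidised cholesterol for LXRs. Each of them binds DNA as a heterodimer with an RXR, and the ligand swaps corepressors for coactivators on the bound site. In brain, LXRs drive cholesterol export and the lipidation of apolipoprotein E by glia, PPARs steer fatty acid oxidation, lipid storage and microglial inflammation, and the protein made from Ppargc1a raises mitochondrial gene expression in neurons with high energy demand. A receptor's activity is set mainly by its ligand and cofactors, so a transcript level is not a measure of activity.

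The values were deposited on a log2 scale with no counts beside them, so the read count behind each value is unknown. The study lists total reads and RNA integrity numbers for 5EL and 5ELKO libraries but not for EL or ELKO. Its list holds more 5ELKO libraries than the 4 read here. Integrity tended to be lower in 5ELKO than in 5EL, and its part in the differences was not tested. A difference of 1 on the log2 scale is a doubling of the deposited value, and the folds given are folds of deposited values. In the lowest genes the libraries lie close together, so that differences of low genes may be understated. With the transform unknown this was not tested, and Pck1, with group means below those of Pparg, ran from 3.78 to 4.61. Thalamus markers were high in every library: the lowest library was at 12.8 for Tcf7l2, at 13.7 for Slc17a6 and at 13.2 for Prkcd. Of 6 cortex and hippocampus markers, Neurod6 was at most 3.52, but their mean log2 value ran from 5.24 to 5.61 across libraries. The habenula marker mean ran from 8.04 to 9.99 and that of hypothalamus and pituitary from 4.73 to 6.17. Markers of neighbouring tissue thus differed between libraries. Lilrb4a itself was low throughout: the highest of the 7 deleted libraries was at 2.33 and the lowest of the 8 intact ones at 2.34. Several libraries stood apart. Mouse Apoe was at 10.9 in ELKO replicate 1 and between 5.92 and 6.37 in the other 14, which goes against the APOE4 label of that library. All 12 choroid plexus markers were highest of their group in 5EL replicate 1 and in ELKO replicate 2, hepatocyte markers scored 5.39 in EL replicate 1 against 4.55 and 4.56 in its group, and EL replicate 3 and ELKO replicate 3 were low in GABAergic neuron markers.

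The promoters of the 3 genes on which the comparisons turned are shown as 250 bases upstream of each RefSeq start (GRCm38.p6), 5′ to 3′ on the gene's own strand. Capitals mark matches, on either strand, to a nuclear receptor half-site (AGGTCA), a GC box (GGGCGG), an ETS core (CCGGAA) or a cyclic AMP response half-element (ACGTCA). In the GENCODE M21 annotation (GRCm38) Rxra spans chr2:27676440-27762957 and Rxrg chr1:167598384-167639623, both on the plus strand, and Nr1h2 spans chr7:44549616-44553951 on the minus strand. The 5 windows hold no annotated exon base. Both Rxra windows and the second Rxrg window lie in introns of the annotated gene, and the first Rxrg window and the Nr1h2 window lie upstream of it.
Rxra, first start, chr2:27676951-27677200, plus strand: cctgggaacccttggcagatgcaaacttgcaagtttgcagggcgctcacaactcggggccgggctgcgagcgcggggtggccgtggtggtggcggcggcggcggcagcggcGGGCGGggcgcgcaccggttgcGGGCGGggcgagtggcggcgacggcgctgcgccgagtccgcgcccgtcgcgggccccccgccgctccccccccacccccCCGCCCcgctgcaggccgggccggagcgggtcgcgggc
Rxra, second start, chr2:27709042-27709291, plus strand: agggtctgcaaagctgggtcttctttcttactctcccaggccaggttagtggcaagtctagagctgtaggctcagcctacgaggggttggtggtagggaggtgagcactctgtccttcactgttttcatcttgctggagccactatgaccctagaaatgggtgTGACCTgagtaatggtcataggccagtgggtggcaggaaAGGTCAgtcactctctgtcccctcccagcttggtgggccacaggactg
Rxrg, first start, chr1:167598112-167598361, plus strand: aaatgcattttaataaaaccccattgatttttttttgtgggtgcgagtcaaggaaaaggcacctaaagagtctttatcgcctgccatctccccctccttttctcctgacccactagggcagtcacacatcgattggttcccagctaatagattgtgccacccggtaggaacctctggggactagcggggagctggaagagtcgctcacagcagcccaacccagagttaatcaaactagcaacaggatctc
Rxrg, second start, chr1:167618015-167618264, plus strand: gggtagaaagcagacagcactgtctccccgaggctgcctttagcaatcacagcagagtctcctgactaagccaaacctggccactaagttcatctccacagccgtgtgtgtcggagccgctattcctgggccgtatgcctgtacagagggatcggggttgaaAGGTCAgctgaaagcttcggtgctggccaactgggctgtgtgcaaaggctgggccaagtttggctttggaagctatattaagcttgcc
Nr1h2, chr7:44553966-44554215, minus strand: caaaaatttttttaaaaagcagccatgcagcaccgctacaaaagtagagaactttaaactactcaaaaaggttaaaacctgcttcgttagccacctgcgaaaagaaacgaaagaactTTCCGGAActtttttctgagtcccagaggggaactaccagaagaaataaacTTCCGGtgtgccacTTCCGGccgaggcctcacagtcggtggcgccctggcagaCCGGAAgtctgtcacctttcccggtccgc

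The first Rxra window was 81.2% G or C and held 3 GC boxes, whereas the second was 55.2% G or C and held 2 half-sites and no GC box. The first Rxrg window held none of the 4 motifs and the second held 1 half-site. The Nr1h2 window held 5 matches to the ETS core, a pair of which share the palindrome TTCCGGAA, and no other motif. Of 32851 mouse promoter windows of the same length, 14.0% held the half-site, 32.7% the GC box, 12% the ETS core and 6.47% the cyclic AMP half-element, so that none of the 4 is rare. Among the other genes, the Ppargc1a window held 1 cyclic AMP half-element and Ppara, Ppard and Rxrb windows held between 2 and 3 GC boxes each.

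The levels of the 9 genes differed far more than any gene differed between groups. Levels of different genes were compared only after the log2 length of the annotated exons, in kb, was taken off. On this per-kb log2 scale, averaged over the 15 libraries, Rxrb stood at 8.10 and Nr1h2 at 8.04, followed by Ppargc1a at 7.30, Rxra at 7.05 and Ppard at 6.58. Rxrg came next at 5.16, then Nr1h3 at 4.56, Ppara at 3.95 and Pparg at 2.74. Each receptor family thus had 1 leading transcript in thalamus, Ppard among the PPARs, Rxrb among the RXRs and Nr1h2 among the LXRs. The order held in 15 of 15 libraries between Nr1h2 and Ppargc1a, Ppard and Rxrg, Nr1h3 and Ppara, and Ppara and Pparg. Rxrb exceeded Nr1h2 in only 11 of 15 libraries, by 0.06 ± 0.09 (SD), and those neighbours did not differ beyond their spread. Ppargc1a exceeded Rxra in 13 of 15 libraries, by 0.25 ± 0.24 (SD), Rxra exceeded Ppard in 14, and Rxrg exceeded Nr1h3 in 14.

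**Figure D1:**
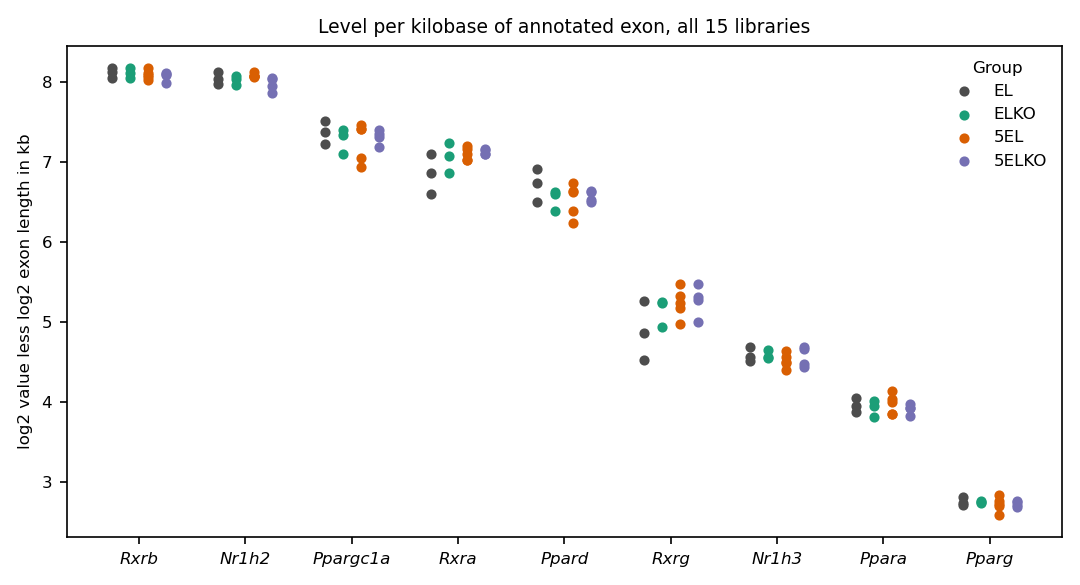
Level of each gene per kb of annotated exon in every library. The horizontal axis gives the 9 genes from highest to lowest mean and the vertical axis the deposited log2 value less log2 of the exon length in kb; each point is 1 library, coloured by group. Rxrb and Nr1h2 overlap at the top, near 8, and Pparg is lowest, at 2.74 on average, in every library.

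The genes also differed in how much they varied from library to library. Rxrg had an SD of 0.25 over the 15 libraries, more than 96.2% of the 15804 genes tested, and Ppard, Ppargc1a and Rxra each exceeded about 86% of them. Rxrb, in contrast, had an SD of 0.05, which exceeded that of only 6.78% of the genes, and Pparg one of 0.06. In the deposited values, not corrected for length, Pparg lay above 8.67% of the genes tested, the lowest of the 9, and Rxrb above 74.6%.

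**Figure D2:**
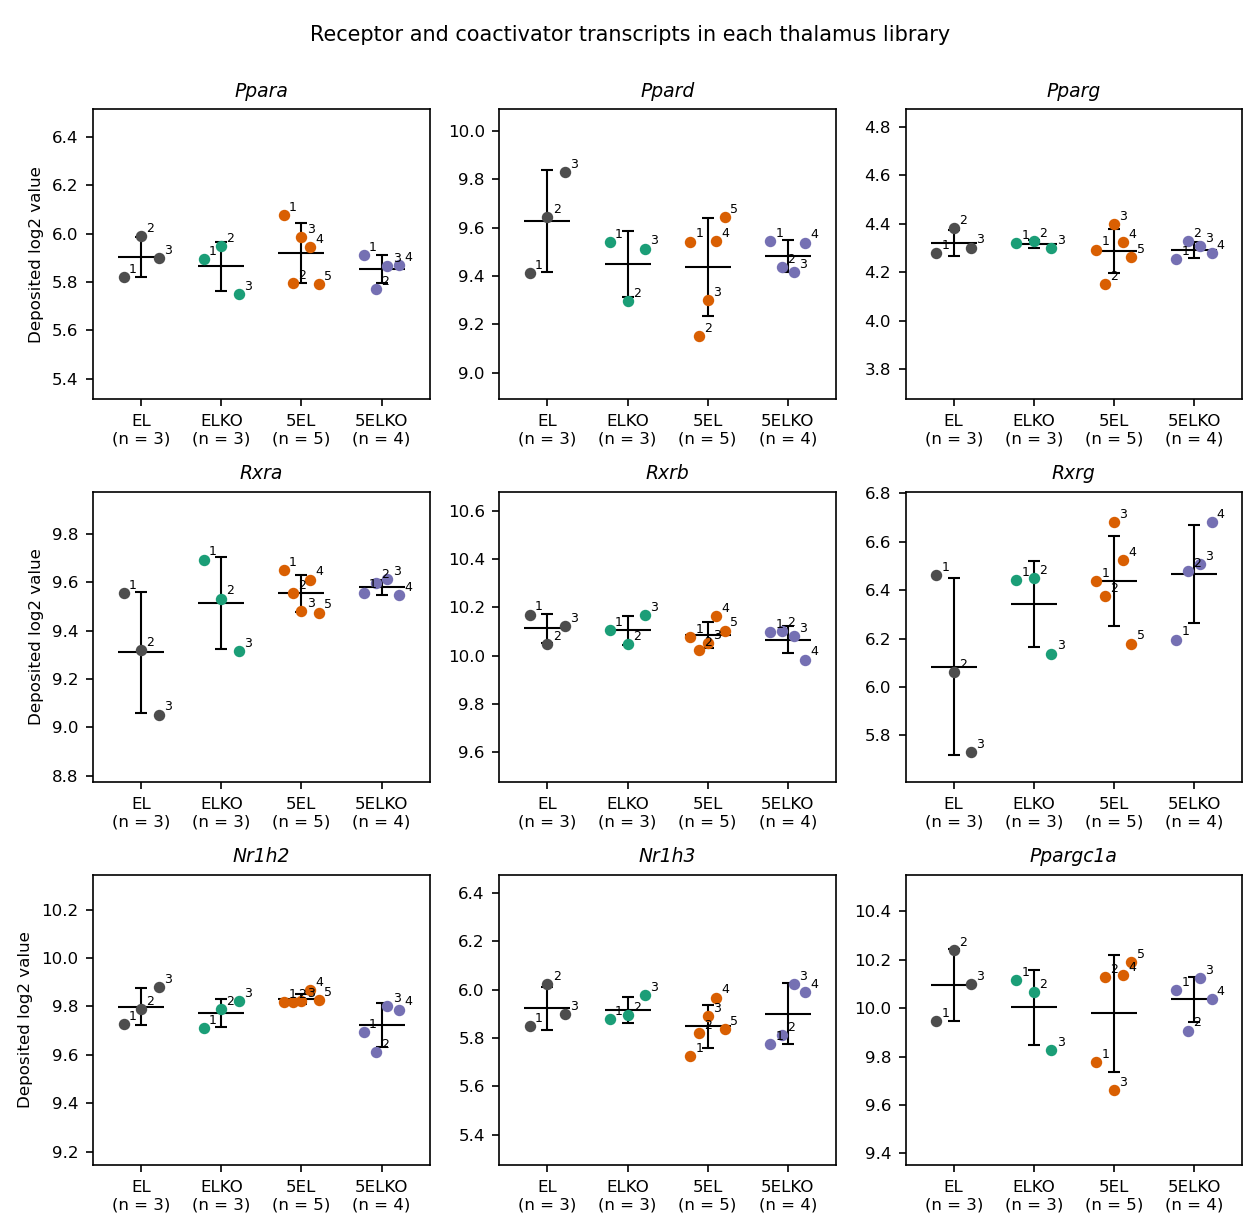
Deposited log2 value of each gene (vertical axis, the same span of 1.2 in each panel) in every library, by group (horizontal axis). Points are libraries marked with their replicate number, the bar is the group mean and the whiskers are 1 SD. Nr1h2 lies lower in all 4 5ELKO libraries than in all 5 5EL libraries, and Rxra and Rxrg are lowest in EL replicate 3; the groups overlap in the other panels.

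The comparison of 5ELKO with 5EL asks what the loss of Lilrb4a does where amyloid is present. Nr1h2 was the only one of the 9 genes at an unadjusted limma p under 0.05, called the unadjusted threshold from here on. It was 1 of 9, where 2.49% of the 15743 genes tested passed in either direction and 0.959% passed as lower. In 5EL the Nr1h2 log2 values were 9.82, 9.82, 9.82, 9.87 and 9.83. In 5ELKO they were 9.69, 9.61, 9.80 and 9.79. All 4 5ELKO libraries lay below all 5 5EL libraries, as they did for 0.457% of the genes tested, and 1.06% of genes did not overlap in either direction. The 5EL values lay within 0.05 of each other, and only 0.01 separated the lowest of them, replicate 2, from 5ELKO replicate 3. The 5ELKO mean was 9.72 ± 0.09 (SD, n = 4), the 5EL mean was 9.83 ± 0.02 (SD, n = 5), and the log2 difference was -0.11 (SE 0.05, 95% interval -0.21 to -0.0054), a fold of 0.929, with a Benjamini-Hochberg adjusted limma p of 0.999 over all genes tested. A two-sided exact permutation test of the 9 values gave p = 0.0159, the smallest p that 4 against 5 libraries can give, without adjustment for the 36 such tests made. No member passed both the unadjusted threshold and the 1.2-fold change that the study asked for (0 of 9; 0.254% of genes did), and none passed an adjusted p of 0.05 (3 of all genes did, 0.0191%). The study applied its thresholds to DESeq2 fits of counts, so that the same fold is an unlike cutoff here.

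The Nr1h2 difference did not rest on 1 library for its direction, but it did for its call. With 1 library left out at a time the log2 difference ran from -0.13 to -0.07, and it passed the unadjusted threshold in 3 of 9 cases. It no longer passed without 5ELKO replicate 1 (-0.10) or replicate 2 (-0.07), the lowest Nr1h2 libraries, nor without 5EL replicate 1 (-0.11), 2 (-0.11), 4 (-0.10) or 5 (-0.11). Hepatocyte marker scores, the mean log2 value of 12 genes, moved with the groups as well, at 4.89 to 5.35 in 5ELKO against 4.52 to 4.71 in 5EL, and their part in the Nr1h2 difference was not tested.

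None of the 3 PPAR genes passed in this comparison. Pparg, the receptor for thiazolidinedione drugs and the one the study followed up, was at 4.29, 4.15, 4.40, 4.32 and 4.26 in 5EL. In 5ELKO it was at 4.25, 4.33, 4.31 and 4.28. The 5ELKO values lay within the 5EL range, and the mean log2 difference was 0.01 (SE 0.05, 95% interval -0.10 to 0.11; exact permutation test, p = 0.905). The scale may understate changes of so low a gene, so the interval is not a limit on the fold change of its transcripts. Ppard, the most abundant PPAR here, had a log2 difference of 0.05 (SE 0.09, 95% interval -0.15 to 0.24). Ppara, which drives fatty acid oxidation in liver, had one of -0.06 (SE 0.07, 95% interval -0.21 to 0.08). In bulk tissue, fewer cells of a type and less RNA per cell cannot be told apart.

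The RXR genes were close between 5ELKO and 5EL. The log2 difference was 0.02 (95% interval -0.08 to 0.13) for Rxra, -0.02 (95% interval -0.11 to 0.08) for Rxrb and 0.03 (95% interval -0.21 to 0.26) for Rxrg. The Rxrg interval was the widest of the 9, and its values ran from 6.18 to 6.68 in 5EL and from 6.20 to 6.68 in 5ELKO. Nr1h3, the LXR of macrophages and liver, had a log2 difference of 0.05 (95% interval -0.10 to 0.20), the opposite sign to Nr1h2. Its exons share 34 bases with Gm13783 on the same strand, where reads of the genes cannot be told apart, and the exons of the 8 others overlap no other gene. Ppargc1a had a log2 difference of 0.06 (95% interval -0.17 to 0.28), and its 5EL libraries were split, with replicates 1 and 3 at 9.78 and 9.66 and the others between 10.13 and 10.19. Over the 9 genes the median log2 difference was 0.02, with 6 of 9 above 0, against a median of 0.0016 over all genes tested.

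**Figure D3:**
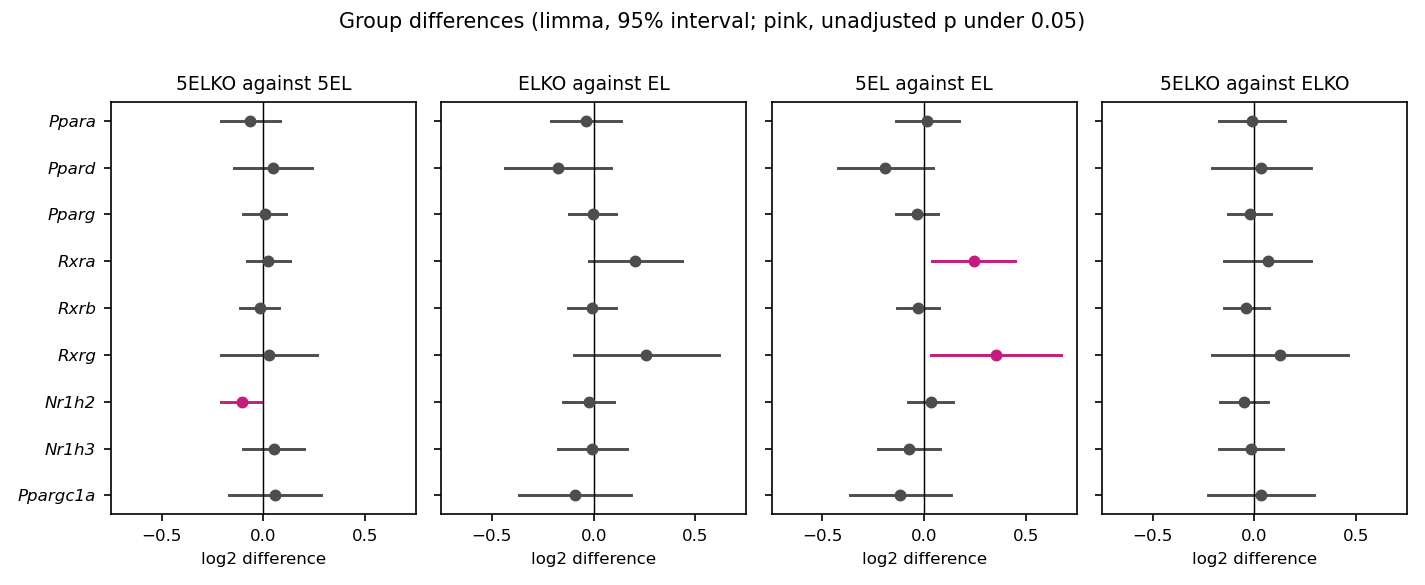
log2 difference (horizontal axis) of each gene (vertical axis) in the 4 pairwise comparisons, first group minus second. Points are limma estimates and lines their 95% intervals; pink marks an unadjusted p under 0.05. Nr1h2 in 5ELKO against 5EL, and Rxra and Rxrg in 5EL against EL are the 3 intervals that leave out 0; no adjusted p passed 0.05.

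The comparison of 5EL with EL asks what amyloid does where Lilrb4a is intact. Rxra and Rxrg, which encode partners of every PPAR and LXR, had higher means in 5EL and passed the unadjusted threshold. They were 2 of 9, where 7.7% of the 15804 genes tested passed in either direction and 3.82% passed as higher. Rxra was at 9.65, 9.55, 9.48, 9.61 and 9.47 in 5EL. In EL it was at 9.56, 9.32 and 9.05. EL replicate 1 lay within the 5EL range and the other 2 EL libraries below it. The mean log2 difference of Rxra was 0.24 (SE 0.10, 95% interval 0.04 to 0.45), a fold of 1.18, with an adjusted limma p of 0.63. Rxrg was at 6.44, 6.37, 6.68, 6.52 and 6.18 in 5EL. In EL it was at 6.46, 6.06 and 5.73. Again EL replicate 1 was among the 5EL values and the other 2 were below all of them. The mean log2 difference of Rxrg was 0.35 (SE 0.15, 95% interval 0.04 to 0.67), a fold of 1.28, with an adjusted limma p of 0.63. Rxrg alone passed both that threshold and the 1.2-fold change (1 of 9, against 2.41% of the genes tested), and for 0 of 9 genes were the groups apart (3.26% of genes were). The exact permutation test, which uses only the 8 values of these groups, gave p = 0.143 for either gene, where 0.0357 was the smallest p possible.

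Both differences rested on EL replicate 3, the lowest of the 15 libraries for Rxra and for Rxrg. Without it the log2 difference was 0.12 for Rxra and 0.18 for Rxrg, and neither passed the unadjusted threshold. Rxra passed it in the 7 other fits with 1 library left out. Rxrg passed in 4 of 8, and lost the call without EL replicate 2 (0.34), 5EL replicate 3 (0.29) or 5EL replicate 4 (0.33) as well. EL replicate 3 was also at 7.97 in the score of 7 GABAergic and reticular thalamus neuron markers, with 6 of 7 markers below both other EL libraries, and at 8.04 in the score of 6 habenula markers, with 5 of 6 below. ELKO replicate 3 resembled it, with all 7 GABAergic markers below its group mates and a score of 8.63, and with the lowest Rxra (9.32) and Rxrg (6.14) of its group. All 8 oligodendrocyte markers were highest of their group in both libraries, at a score of 12.72 in EL replicate 3 and 12.75 in ELKO replicate 3. The GABAergic score was also low, at 8.48, in 5EL replicate 1, where Rxra was at 9.65 and Rxrg at 6.44. The part of these markers in the RXR differences was not tested. With both replicate 3 libraries left out, an alternative chosen after the data were seen, the log2 differences were again 0.12 for Rxra and 0.18 for Rxrg, and 0 of 9 genes passed.

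**Figure D4:**
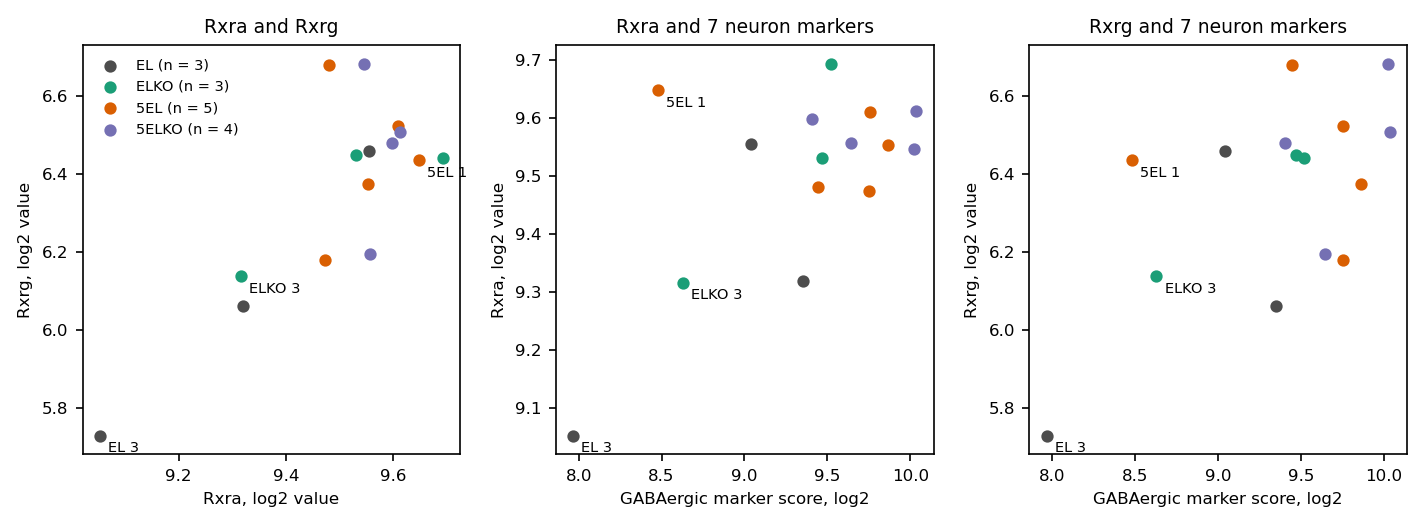
Rxra and Rxrg in each of the 15 libraries. Left, Rxrg against Rxra, both as log2 values; middle and right, each gene against the mean log2 value of 7 GABAergic and reticular thalamus neuron markers, with points coloured by group. EL replicate 3 is lowest on every axis (9.05, 5.73 and 7.97), while 5EL replicate 1 combines a low marker score (8.48) with Rxra at 9.65.

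The other 7 genes gave no call in 5EL against EL. Ppard had the largest remaining value, a log2 difference of -0.19 (SE 0.11, 95% interval -0.42 to 0.04; limma, adjusted p = 0.636). Its EL values were 9.41, 9.64 and 9.83 and its 5EL values ran from 9.15 to 9.64, so the groups overlapped. Ppard passed the unadjusted threshold without EL replicate 1, at -0.30, where 20.2% of all genes passed, and without 5EL replicate 5, at -0.24, where 7.26% did. Pparg had a log2 difference of -0.04 (95% interval -0.14 to 0.07), Nr1h3 one of -0.07 (95% interval -0.23 to 0.08) and Nr1h2 one of 0.03 (95% interval -0.08 to 0.14). Over the 9 genes the median log2 difference was -0.03, against 0.0006 over all genes tested.

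The same contrast without Lilrb4a, 5ELKO against ELKO, gave no call among the 9 genes (0 of 9; 2.37% of genes passed), and the groups overlapped for each of them (3.4% of genes did not). Rxra was at 9.56, 9.60, 9.61 and 9.55 in 5ELKO and at 9.69, 9.53 and 9.32 in ELKO, so that the 5ELKO libraries sat inside the ELKO range. The log2 difference was 0.06 (SE 0.10, 95% interval -0.15 to 0.28) for Rxra and 0.12 (SE 0.16, 95% interval -0.21 to 0.46) for Rxrg. Without ELKO replicate 1, the library with high mouse Apoe, these were 0.15 and 0.17, and 0 of 9 genes passed. Averaged over both Lilrb4a genotypes, the log2 difference with amyloid was 0.15 (SE 0.07, 95% interval 0.01 to 0.30) for Rxra and 0.24 (SE 0.11, 95% interval 0.01 to 0.47) for Rxrg, with an adjusted limma p of 0.693 for either. Both passed the unadjusted threshold (2 of 9; 6.57% of genes passed, 3.56% as higher). Neither call was firm: with single libraries left out, Rxra passed in 4 of 15 fits (0.09 to 0.22) and Rxrg in 6 of 15 (0.15 to 0.33), the lowest of each being without EL replicate 3. With both replicate 3 libraries left out, Rxra was at 0.04 and Rxrg at 0.10 and 0 of 9 passed. With the 4 libraries that stood apart in choroid plexus, hepatocyte or mouse Apoe signal left out instead, which leaves EL replicates 2 and 3 and ELKO replicate 3, Rxra was at 0.30 with an adjusted limma p of 0.0362, in a fit where 6.52% of all genes had an adjusted p under 0.05 and 29.5% passed the unadjusted threshold. That was the only adjusted p under 0.05 for any of the 9 genes in any fit, and the adjusted p of that difference ran from 0.0362 to 0.99999 over its 25 fits. The average shares its EL and 5EL libraries with the comparison of those groups.

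The comparison of ELKO with EL asks what the deletion does without amyloid, and 0 of 9 genes passed at an unadjusted p under 0.05 (2.35% of genes did). No gene of the 9 parted the groups (4.59% of genes did). Rxra had a log2 difference of 0.20 (SE 0.11, 95% interval -0.02 to 0.43) and Rxrg one of 0.26 (SE 0.17, 95% interval -0.10 to 0.62), with an adjusted limma p of 0.998 for either. An exact permutation test of 3 against 3 cannot go below 0.1 and gave p = 0.5 for Rxra and p = 0.4 for Rxrg. Deviations from the group means correlated between EL and ELKO libraries with the same replicate number (0.45, 0.33 and 0.74). Differently numbered libraries were not compared, and deviations within each group of 3 sum to 0, so these correlations cannot show pairing by number. A fit with the replicate number as a block was set beside this one. It held all 15 libraries and also blocked 5EL with 5ELKO by number, where the correlations were -0.07, -0.24, -0.03 and 0.14. Those blocks entered the spread behind its p-values. No label pairs EL with ELKO libraries, and the pairing was read from the same values that were then tested. Not every gene moved alike, as mouse Apoe was at 5.92 in EL replicate 1 and at 10.90 in ELKO replicate 1. In the blocked fit the differences were again 0.20 for Rxra and 0.26 for Rxrg and both passed the unadjusted threshold (2 of 9, where 5.95% of all genes did), with 0 genes at an adjusted p under 0.05 in either fit. Within the pairs, Rxra was higher in ELKO by 0.14, 0.21 and 0.26 and Rxrg differed by -0.02, 0.39 and 0.41. The value depended on the libraries, and without the block, Rxra was at 0.33 without EL replicate 1 and at 0.30 without ELKO replicate 3, where it passed as did 11.6% and 8.72% of all genes, and at 0.11 without ELKO replicate 1 and 0.08 without EL replicate 3, where it did not. Without EL replicate 1, Rxrg, at 0.45, and Ppard, at -0.29 against -0.18 with all libraries, passed too. Without EL replicate 3, Rxrg was at 0.08. Nr1h2 had a log2 difference of -0.02 (95% interval -0.15 to 0.10) in this comparison.

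Whether the deletion acts differently with and without amyloid was tested as an interaction, and 0 of 9 genes passed (2.73% of genes did). The Nr1h2 interaction was -0.08 (SE 0.08, 95% interval -0.25 to 0.08), so its lower value in 5ELKO was not shown to depend on amyloid. Averaged over both amyloid states the Nr1h2 log2 difference with deletion was -0.07 (SE 0.04, 95% interval -0.15 to 0.02), and 0 of 9 genes passed in that average (1.8% of genes did). The Rxra interaction was -0.18 (SE 0.14), the Rxrg interaction -0.23 (SE 0.22) and the Ppard interaction 0.22 (SE 0.16). Without EL replicate 1 all 3 passed the unadjusted threshold, at -0.30, -0.42 and 0.33, where 7.78% of all genes did, and without EL replicate 3 they were -0.05, -0.05 and 0.12. The deletion averages of Rxra and Rxrg, 0.11 (SE 0.07) and 0.14 (SE 0.11), likewise passed without EL replicate 1, at 0.18 and 0.24, where 7.81% of all genes did. With the replicate block, the interaction passed for 2 of 9 genes, Rxra (-0.20) and Ppard (0.28), where 4.96% of all genes did. The blocked deletion average passed for 1 of 9, Rxra (0.10), where 4.25% of all genes did. Replicate numbers were taken to pair EL with ELKO but not 5EL with 5ELKO, so that the block is apt for at most some of the libraries in these fits.

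Across all 7 comparisons and their alternative fits, Ppara, Pparg, Rxrb and Nr1h3 never passed the unadjusted threshold, in 141 fits for Pparg and 148 for each of the others. The widest values over those fits were -0.06 and 0.05 for Pparg and -0.10 and 0.08 for Rxrb. Rxra passed in 39 of 148 fits, Rxrg in 29, Nr1h2 in 10, Ppard in 7 and Ppargc1a in 1. Many of these fits share libraries, so the counts describe how the calls depend on the libraries and not how often they would recur.

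Over the 15 libraries, Rxra and Rxrg varied together, with Pearson's r of 0.80 (permutation test, p = 0.0012, adjusted p = 0.045 over the 36 pairs of genes) and Spearman's rho of 0.49 (permutation test, p = 0.0658, adjusted p = 0.818). Without EL replicate 3 and ELKO replicate 3, the 2 libraries farthest from the Rxra median, r was 0.48, so that the relation rests on them. Within the 9 libraries with 5xFAD r was 0.11, and within the 6 without it 0.96. Ppard and Rxrg ran in opposite directions, with r of -0.65 (permutation test, p = 0.0093, adjusted p = 0.167) and rho of -0.49 (permutation test, p = 0.0677, adjusted p = 0.818); r was -0.59 without the 2 libraries farthest from the Ppard median. No other pair passed the unadjusted threshold, Rxrb with its partners included.

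The genes whose values most resembled each member across the 15 libraries were read from the 15803 others. Rxra was matched most closely by Pdxk (r = 0.97) and Stat5b (r = 0.96), and 1635 genes passed an absolute r of 0.8 with it. Rxrg was matched by Pygb (r = 0.94) and Serpini1 (r = 0.92), with 410 such genes, and Ppard by Adarb1 (r = 0.95) and Arid5a (r = 0.95), with 274. These 3 transcripts thus followed an order of the libraries that many other genes shared, against 50 genes or fewer for each of the 6 others. Ppargc1a was matched by Thsd7a and Sox5 (r = 0.90 and 0.89), with 50 such genes, and Nr1h2 by Rpa2 and A230050P20Rik (r = 0.88 and 0.85), with 26. Nr1h3 was nearest to Crip3 and Exo5 (r = 0.88 for both) and Pparg to Gpr45 and Gyg (r = 0.87 and 0.76). Ppara was nearest to Ccnd3 (r = 0.81) and Rxrb to Galnt18 and Rad23b (r = 0.78 and 0.77), with no more than 1 gene past 0.8.

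The genes that these receptors are known to control or to work with were read from 7 lists written for the pathway. Among 13 LXR targets tested, 1 was higher and 1 lower in 5EL than in EL at the unadjusted threshold, where 3.82% and 3.88% of all genes were. The higher one was Abca1, the cholesterol exporter, at 10.52, 10.44, 10.38, 10.58 and 10.57 in 5EL and at 10.06, 10.15 and 10.01 in EL. All 5EL libraries lay above all EL libraries, and 3.26% of all genes tested did not overlap there. The log2 difference was 0.43 (SE 0.13; limma, adjusted p = 0.63), and it was 0.40 without EL replicate 3. In ELKO, Abca1 was at 10.77, 10.22 and 10.05, and the 10.77 of ELKO replicate 1, the library with high mouse Apoe, was the highest of the 15. Averaged over Lilrb4a genotypes, Abca1 had a log2 difference with amyloid of 0.29 (SE 0.09; limma, adjusted p = 0.693), and 0.40 without that library. Srebf1, which drives fatty acid synthesis, and Mylip, which marks lipoprotein receptors for breakdown, had amyloid averages of 0.18 each (SE 0.06 and 0.07; limma, adjusted p = 0.693). With Abca1 they were the 3 of 13 LXR targets to pass in that average, where 6.57% of all genes passed. Scd1, a fatty acid desaturase, was the lower LXR target in 5EL, by a log2 difference of -0.13 (SE 0.06). In 5ELKO against 5EL, 0 of the 13 LXR targets passed (2.49% of all genes did) and their median log2 difference was 0.04, beside the lower Nr1h2.

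Of 15 PPAR-gamma targets listed, 8 were tested, and 2 were higher in 5EL than in EL at the unadjusted threshold, where 3.82% of all genes were. Of 10 microglia markers, 6 were higher in the same comparison, with a median log2 difference of 0.29, and their part in the values of Lpl, Cd36 and Abca1 was not tested. Lpl, the lipase that frees fatty acids from lipoproteins, was at 7.90, 7.44, 7.65, 7.51 and 7.62 in 5EL and at 7.53, 7.07 and 6.92 in EL. EL replicate 1 was within the 5EL range. The log2 difference was 0.45 (SE 0.14; limma, adjusted p = 0.63), and 0.33 without EL replicate 3. Cd36, a fatty acid and lipoprotein scavenger receptor, had 0.13 (SE 0.06). Pck1, an enzyme of glucose and glycerol synthesis, was the only PPAR-gamma target to pass in 5ELKO against 5EL (1 of 8, where 2.49% of all genes passed). Its log2 difference no longer passed without 5ELKO replicate 1 (0.18). The highest Pck1 value of the 15, 4.61, was in EL replicate 1, the library with high hepatocyte markers. All 12 hepatocyte markers were also higher in 5ELKO than in 5EL at the unadjusted threshold, where 1.53% of all genes were. Their part in the Pck1 difference was not tested. The fat cell genes Adipoq, Fabp4, Plin1 and Cidec were too low to be tested. Among 22 PPAR-alpha and PPAR-delta targets, Ucp3, a mitochondrial carrier, passed in 5ELKO against ELKO, with a log2 difference of -0.22 (SE 0.08), and in the amyloid average, with -0.17 (SE 0.06). Acaa2, of fatty acid oxidation, passed in 5ELKO against 5EL, with one of -0.17 (SE 0.07). Plin2, a lipid droplet coat protein, passed only in the deletion average, at 0.13 (SE 0.06). No other gene of that list passed in any of the 7 comparisons. Of all genes, 2.37% passed in 5ELKO against ELKO and 2.49% in 5ELKO against 5EL. In the amyloid and deletion averages 6.57% and 1.8% did.

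In the PGC-1alpha axis, 3 of 10 genes were lower in 5EL than in EL at the unadjusted threshold, where 3.88% of all genes were, while Ppargc1a itself had a log2 difference of -0.12 (95% interval -0.36 to 0.13). Esrra, the receptor that PGC-1alpha coactivates, had -0.24 (SE 0.10), Cycs, cytochrome c, had -0.27 (SE 0.13) and Tfb2m, a mitochondrial transcription factor, had -0.18 (SE 0.07). All 3 were highest of the 15 libraries in EL replicate 3, at 10.82, 11.52 and 8.92, and the Esrra difference was -0.13 without it and no longer passed. EL replicates 1 and 2 were at 10.89 and 11.06 for Cycs, against 10.72 to 11.03 in 5EL. For Tfb2m they were at 8.60 and 8.69, against 8.52 to 8.62 in 5EL. The Cycs and Tfb2m differences thus lean on EL replicate 3 as well. Of 17 coactivators and corepressors, Tbl1xr1, a corepressor exchange factor, had 0.13 (SE 0.05) in 5ELKO against 5EL, with no overlap between the groups (1.06% of all genes did not overlap), and -0.13 (SE 0.06) in 5EL against EL. Of 7 other RXR partners tested, Thrb, a thyroid hormone receptor, had 0.14 (SE 0.06) in 5ELKO against 5EL. Each was the only gene of its list to pass there, where 2.49% of all genes passed in 5ELKO against 5EL and 7.7% in 5EL against EL.

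At the unadjusted threshold, 1 of 12 genes tested for ligand synthesis and delivery was higher and 1 lower in 5ELKO against 5EL. In 5EL against EL, 2 were higher and 1 lower. Of all genes, 2.49% and 7.7% passed there. Stra6, the membrane receptor for retinol, passed in 4 comparisons: both of these, 5ELKO against ELKO (2.37% of genes) and the interaction (2.73%). It was at 7.05, 6.33, 6.58, 6.70 and 6.75 in 5EL and at 6.38, 6.43, 6.21 and 6.46 in 5ELKO. The log2 difference was -0.31 (SE 0.12; limma, adjusted p = 0.999). In EL it was at 6.45, 6.26 and 6.49 and in ELKO at 6.58, 6.82 and 6.54, so that every ELKO library was above every EL library. Of all genes tested, 4.59% did not overlap between these groups. The 2 highest libraries, 5EL replicate 1 and ELKO replicate 2, were the 2 with high choroid plexus markers, at scores of 7.80 and 8.18 against 5.70 to 6.20 elsewhere. With the choroid plexus score in the fit the difference between 5ELKO and 5EL was -0.23. Fabp7, a brain fatty acid binding protein, was higher in 5ELKO than in 5EL at the unadjusted threshold, and with that score in the fit its difference of 0.18 no longer passed. Cyp46a1, which makes a brain oxysterol that LXRs bind, had -0.18 (SE 0.07) in 5EL against EL, and Cyp26b1, which breaks down retinoic acid, had 0.11 (SE 0.05). In ELKO against EL, no gene of the 7 lists passed the unadjusted threshold (2.35% of all genes did). No gene of the 7 lists had an adjusted limma p under 0.05 in any comparison with all libraries in the fit.

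**Figure D5:**
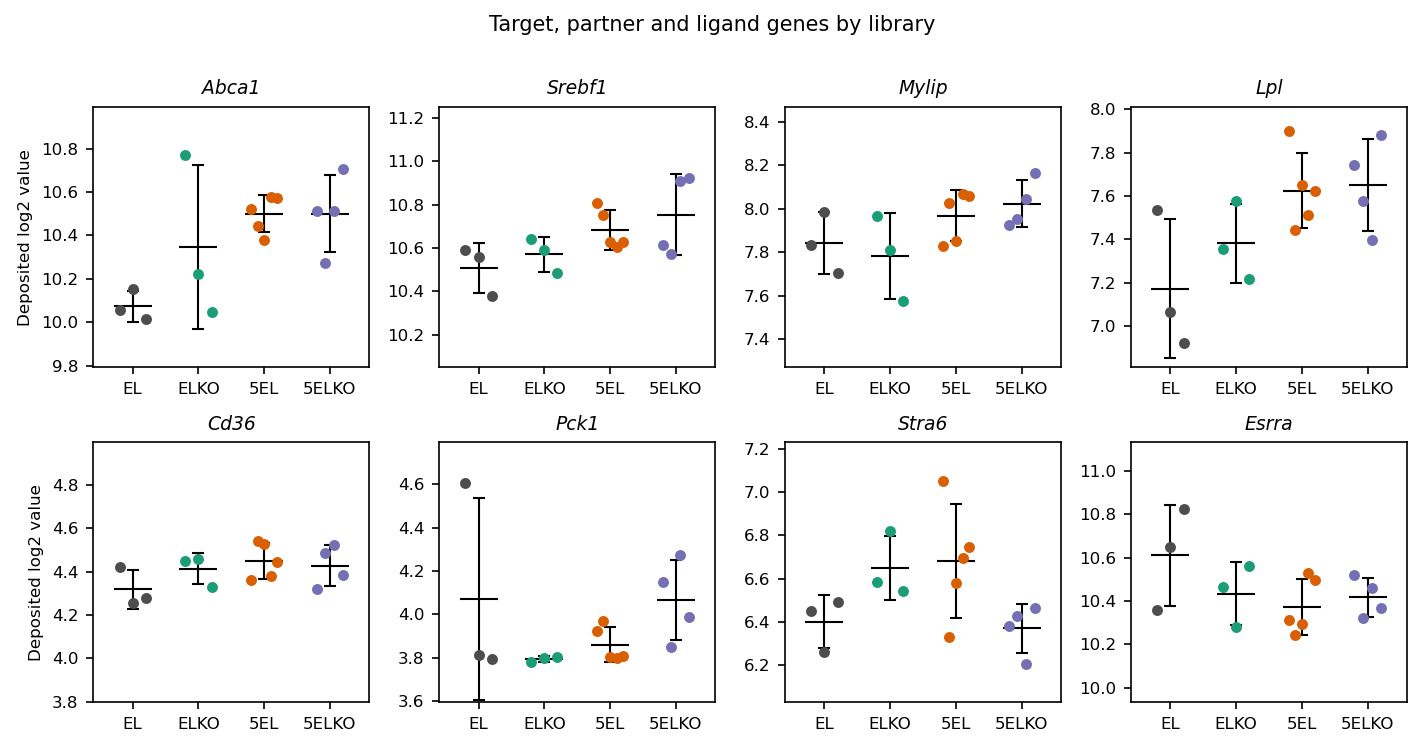
Deposited log2 value (vertical axis, the same span of 1.2 in each panel) of 8 genes of the lists in every library, by group (horizontal axis). Points are libraries, the bar is the group mean and the whiskers are 1 SD. Abca1 is higher in all 5 5EL libraries than in all 3 EL libraries, and the highest Stra6 point is 5EL replicate 1, at 7.05.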

How the data were processed

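PolyA RNA of thalamus was sequenced in 15 libraries. Per the labels and the study's methods, reads were trimmed by the authors (Trimmomatic 0.39), aligned to GRCm38 (HISAT2 2.2.1) and counted as pairs over exons regardless of strand (featureCounts 2.0.3), and DESeq2 1.38.3 served their own tests. The authors deposited log2 values for 29659 genes, 1 file per library. The transform behind these log2 values is not given in the sources used here. No counts were analysed, so depth and counting error are unknown, and a count test could not be made.

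Groups came from the sample titles. Genes at a log2 value of 3.32 (10 on the linear scale) or more in at least 4 of 9 or 3 of 15 libraries were tested with limma 3.58.1 in R 4.3.3 (eBayes with a trend), which was tested on simulated data. The comparison of 5ELKO with 5EL used their 9 libraries (15743 genes). The other comparisons used all 15 (15804 genes), and p-values were Benjamini-Hochberg adjusted over all genes tested. Exact two-sided permutation tests (36 in all, scipy 1.17.1) were run on the members. The 9 members, the gene lists and the named genes, which were the list genes at an unadjusted p under 0.05 in a comparison, were chosen with earlier results of these data known. Scores are means over marker lists, levels per kb used GENCODE M21 exon lengths, and promoters came from RefSeq (all 9 genes matched, 15 starts). Correlations used 100000 permutations. Alternatives were other filters, the replicate number as a block, the choroid plexus score as a covariate and fits without single libraries or sets of them. Replicate numbers were taken to pair EL with ELKO only, since the deviations of same-numbered libraries correlated at 0.45, 0.33 and 0.74. Differently numbered libraries were not compared. The blocked fit of ELKO against EL nonetheless blocked 5EL with 5ELKO by number as well. No label states the pairing of EL with ELKO.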

Additional observations from a re-analysis of the deposited data

Results flagged for a closer look

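Only 5EL and 5ELKO were checked for a single library far from the rest. EL and ELKO, with 3 libraries each, were not checked. Of 64 groups of values checked in 5EL and 5ELKO, 7 held such a library, where chance alone gives about 1 in 20. Among the members this was Nr1h2 in 5EL replicate 4, at 9.87 against 9.82 to 9.83 in the other 5EL libraries, a gap of 0.841 of the group's range. The score of the ligand synthesis and delivery genes was apart in 5ELKO replicate 4 (0.858 of the range). The marker scores that were apart were choroid plexus in 5EL replicate 1 (0.839), hypothalamus and pituitary in 5ELKO replicate 2 (0.899), endothelial in 5ELKO replicate 4 (0.853), fibroblast and meninges in 5ELKO replicate 2 (0.932) and erythroid in 5ELKO replicate 4 (0.863).

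The deletion effect differed with and without 5xFAD for 2 genes of the lists, by the unadjusted interaction test. For Pck1 the log2 difference of differences was 0.48 (SE 0.21; limma, adjusted p = 0.9996), and it was 0.21 and no longer passed without EL replicate 1, the library with high hepatocyte markers. All 12 hepatocyte markers also passed the interaction as higher, where 1.5% of all genes did. Their part in the Pck1 value was not tested. For Stra6 the log2 difference of differences was -0.56 (SE 0.18; limma, adjusted p = 0.9996), -0.39 with the choroid plexus score in the fit, where it still passed, and -0.38 without the libraries that stood apart, where it did not.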

How the results depend on the processing

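No called difference of the 9 genes changed direction under any alternative. Of 1262 alternative values over 63 member results, 1199 stayed on the same side of the unadjusted threshold, 42 lost the call and 21 gained it. The median log2 difference of the 9 genes in 5ELKO against 5EL was 0.025 with all libraries and ran from -0.024 (without 5EL replicate 2) to 0.039 (without 5EL replicate 4) with 1 library left out, so the sign of that median rests on single libraries. The replicate block gave a median of 0.00 there and of -0.01 in ELKO against EL, the 1 comparison in which replicate numbers were taken to pair the libraries. In 5EL against EL, where the numbers were not taken to pair, the block gave -0.04, called Ppard (-0.30) and Ppargc1a (-0.24) and lost Rxrg (0.41). In ELKO against EL the block moved the calls at the unadjusted threshold from 166 higher and 206 lower genes to 543 and 397, with 0 at an adjusted limma p under 0.05 in either fit. In 5ELKO against 5EL the block lost the Nr1h2 call (-0.11). The libraries lie close together in the lowest genes. Small changes of Pparg, the lowest of the 9, may therefore not have been detectable.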
